A study of Homo sapiens with 18 samples.

Results

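EHF and 9 other transcription factors of the ETS family, ELF1, ELF3, ELF5, SPDEF, ETS1, ETS2, ELK3, ETV6 and ETV7, were followed by RNA sequencing in head and neck squamous carcinoma (HNSCC) cell lines in which the level of EHF had been raised or lowered. The 10 genes were chosen by symbol and are 10 of 28 ETS genes and of 23710 genes in the count tables. A253 gave 3 libraries labelled EHF overexpressing, whose cells were treated with 1 ug of doxycycline to induce EHF, and 3 control libraries grown in regular medium. SCC25 gave 2 EHF overexpressing libraries, also with 1 ug of doxycycline, and 2 control libraries in regular medium. CAL27 gave 2 libraries for each of 2 EHF knockdowns, named sh 64 and sh 65 in the count table, and 2 control libraries, named sh Control in that table, all 6 in regular medium. The volume behind the doxycycline amount, the design of the EHF construct and of the hairpins, what the control cells carry beyond the name sh Control, and whether a line is a clone are not given in the sources used here. Because overexpressing cells received doxycycline and control cells did not, an effect of the drug cannot be told apart from an effect of EHF. Counts are per gene, so reads from an introduced EHF copy and from the cells' own gene cannot be told apart either.

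ETS factors bind DNA through a conserved winged helix domain that recognises a core of GGAA, and family members can therefore compete for the same sites. EHF, ELF3 and ELF5 form an epithelium-specific branch of the family, expressed in surface and glandular epithelia, and SPDEF is a factor of secretory epithelium such as goblet cells. ELF1 is widely expressed, and ETS1 and ETS2 are activators controlled by RAS and MAP kinase signalling. ELK3 is a serum response cofactor that can repress. ETV6, a repressor, and ETV7 are related factors.

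The stretch before the start of EHF, the gene that was changed, and before the start of ELF3, the close relative that rose in the knockdown, are shown because both factors read the GGAA core. They are the 250 bases upstream of the annotated start, from RefSeq on GRCh38.p14, and GGAA on either strand (GGAA or TTCC) is in capitals. The EHF stretch is the first of its 2 annotated starts, at chr11:34624007-34624256 on the plus strand, and the ELF3 stretch is at chr1:202010337-202010586 on the plus strand.
EHF: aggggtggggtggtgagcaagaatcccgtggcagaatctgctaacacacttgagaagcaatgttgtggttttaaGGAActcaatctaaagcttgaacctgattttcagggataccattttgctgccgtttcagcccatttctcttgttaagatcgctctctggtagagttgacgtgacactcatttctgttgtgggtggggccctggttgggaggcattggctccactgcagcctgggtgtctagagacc
ELF3: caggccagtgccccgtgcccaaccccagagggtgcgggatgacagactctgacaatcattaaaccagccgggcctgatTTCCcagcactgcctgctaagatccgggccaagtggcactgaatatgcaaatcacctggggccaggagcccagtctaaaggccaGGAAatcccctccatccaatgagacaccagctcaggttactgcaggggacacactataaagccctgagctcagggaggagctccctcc

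The EHF stretch held 1 GGAA word and the ELF3 stretch held 2, 1 on each strand. The second EHF start, at chr11:34632316-34632565, held 0. Of 35116 annotated promoters 92.74% held at least 1 such word in a window of the same length, with a median of 3, so neither gene stood above the usual number. The longer words GGAAG and CGGAAG (either strand; each contains GGAA) occurred 0 times in both stretches, against 65.09% and 16.48% of promoters. These matches are letters in a window and do not show binding. Of the 10 genes, 8 had a promoter in the table. ELF5 is the gene next to EHF in the annotation.

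Library totals ran from 7068155 to 19962159 counts. All 8 squamous markers examined (KRT5, KRT14, KRT6A, KRT17, TP63, CDH1, EPCAM and DSG3) had counts in every group. Their summed level was 10590 to 12790 CPM (counts scaled to a common library size) in CAL27 knockdown libraries against 7648 to 8159 CPM in CAL27 controls, and 6 of the 8 passed the test used below as higher with each hairpin. In A253 the sum was 11310 to 12400 CPM in overexpressing and 13110 to 14140 CPM in control libraries, with 3 of 8 passing as lower, and in SCC25 4 of 8 passed as higher with overexpression. Summed leukocyte markers in A253 were 169.8 to 184.2 CPM in overexpressing and 122.8 to 128 CPM in control libraries, most of it CD68, and 2 of 3 tested passed as higher. CD68 was 160.9 to 174.5 CPM in overexpressing and 117.6 to 122.9 CPM in control libraries. CD14 was 6.55 to 7.95 CPM in overexpressing and 2.46 to 3 CPM in control libraries. LYZ was not higher, at 1.70 to 2.45 CPM against 2.30 to 2.55 CPM. The markers CD3E and MS4A1 were at 0 and PTPRC at most 0.284 CPM there. The part of these markers in the results below was not tested. Summed fibroblast markers were highest in SCC25, at 110.6 to 112 CPM in overexpressing and 89.98 to 101 CPM in control libraries. In A253, a line derived from a salivary gland tumour, 5 of 6 salivary markers were at 0 and the other had at most 2 counts in a library, while CAL27 had 9.18 to 31.7 CPM in knockdown and 18.5 to 22.25 CPM in control libraries, most of it STATH. These are mixtures of many cells, so a lower level can mean fewer cells with the transcript or less transcript per cell. Deviations of same-numbered libraries from their group means correlated at -0.406, -0.0796 and 0.416 in A253, without a common sign. In SCC25 the value was -0.00196. In CAL27 it was -0.0439 for sh 64 with control, 0.238 for sh 65 with control and 0.0711 for sh 64 with sh 65. With 2 libraries a group, these values cannot settle whether the numbers pair libraries in SCC25 or CAL27. In A253, overexpressing replicate 1 and control replicate 2 deviated together from their group means (correlation across genes 0.56), which also shows in ETV6 below.

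The first comparison sets the control cells of the lines against each other. Per unit of transcript length, as TPM (the transcript share of a library), EHF had rank 1 among the 28 ETS genes in CAL27 controls, rank 2 in SCC25 controls and rank 4 in A253 controls. It measured 331.9 ± 1.1 TPM in CAL27 controls (SD, n = 2), 151.7 ± 15.6 TPM in SCC25 controls (SD, n = 2) and 30.9 ± 2.75 TPM in A253 controls (SD, n = 3). As a share of the summed TPM of all ETS genes this was 54.0% ± 1.2 in CAL27, 25.9% ± 0.748 in SCC25 and 9.07% ± 0.232 in A253. ETS2 led in both other lines, at 159.4 ± 7.31 TPM in SCC25 and 44.4 ± 2.73 TPM in A253, where ETS1 (37.2 ± 2.83 TPM) and ELF1 (36.6 ± 4.09 TPM) came next. ELF5 and SPDEF stayed under 0.2 mean TPM in the controls of every line.

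EHF had 968 and 1019 CPM in CAL27 controls, 471 and 430.3 CPM in SCC25 controls, and 83.1, 88.9 and 81.1 CPM in A253 controls. The 3 lines did not overlap, and each step in this order passed the test: the log2 difference was 1.13 for CAL27 over SCC25 (SE 0.073, adjusted p = 8.15e-12) and 2.43 for SCC25 over A253 (SE 0.068, adjusted p = 2.8e-18). These and all later adjusted p-values are from edgeR's quasi-likelihood test with Benjamini-Hochberg adjustment over all genes tested, with 0.05 as the threshold.

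ELF3 had another order. It had 36.5 and 41.4 CPM in CAL27 controls, 8.47 and 7.69 CPM in SCC25 controls, and 41.6, 42.1 and 48.5 CPM in A253 controls. A253 and CAL27 were neighbours whose difference did not pass (CAL27 over A253, log2 -0.16, adjusted p = 0.119), while SCC25 was lower than A253 by a log2 difference of -2.42 (SE 0.109, adjusted p = 1.02e-14). The CAL27 to A253 difference passed with upper-quartile scaling (log2 -0.23, adjusted p = 0.0265) and without A253 control replicate 2 (log2 -0.22, adjusted p = 0.0188). SCC25 thus combined a middle level of EHF with the lowest level of ELF3.

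ETS1 ran against EHF across the controls. It averaged 21.4 ± 2.19 CPM in CAL27 controls (SD, n = 2), 68.3 ± 2.99 CPM in SCC25 controls (SD, n = 2) and 99.8 ± 3.94 CPM in A253 controls (SD, n = 3), and all 3 steps passed, with a log2 difference of -2.24 for CAL27 over A253 (SE 0.084, adjusted p = 6.91e-16). ETS2 was highest in SCC25 controls at 342.8 ± 2.32 CPM, with 166.7 ± 1.05 CPM in CAL27 controls and 87.6 ± 2.3 CPM in A253 controls, and all 3 differences passed. ELK3 followed the same order as ETS2, with 15.3 ± 1.55 CPM in CAL27, 19.7 ± 0.027 CPM in SCC25 and 6.96 ± 0.656 CPM in A253 controls. Its difference between CAL27 and SCC25 (CAL27 over SCC25, log2 -0.40, adjusted p = 0.00508) was lost without CAL27 control replicate 2 (log2 -0.28, adjusted p = 0.119).

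ETV6 was higher in CAL27 controls (36.8 ± 2.39 CPM) and in SCC25 controls (29.8 ± 2.73 CPM) than in A253 controls (12.5 ± 3.06 CPM), and CAL27 and SCC25 did not differ past the threshold (CAL27 over SCC25, log2 0.29, adjusted p = 0.183), though they did without A253 control replicate 2 (adjusted p = 0.00472) and with no filter (adjusted p = 0.0229). ELF1 varied least among the 8 tested genes, with 55.9 ± 4.32 CPM in CAL27, 63.1 ± 1.13 CPM in SCC25 and 66.3 ± 5.71 CPM in A253 controls. ELF1 did not pass for CAL27 over SCC25, but did with no filter (adjusted p = 0.02). It also did without A253 control replicate 2 (adjusted p = 0.0183) or 3 (adjusted p = 0.0344). For SCC25 over A253 it passed only with upper-quartile scaling (adjusted p = 0.0268). Its difference between CAL27 and A253 passed (log2 -0.25, SE 0.08, adjusted p = 0.0075) and was lost without CAL27 control replicate 2 (log2 -0.17, adjusted p = 0.17). ETV7 was low in all lines, at 1.62 ± 0.717 CPM in CAL27, 3.16 ± 0.261 CPM in SCC25 and 1.13 ± 0.297 CPM in A253 controls. ETV7 passed for CAL27 over SCC25 (log2 -0.84, adjusted p = 0.013) and for SCC25 over A253 (log2 1.51, adjusted p = 4.5e-05). For CAL27 over A253 it did not pass, but did without A253 control replicate 1 (log2 0.90, adjusted p = 0.0373). This log2 difference was 0.93 without CAL27 control replicate 1 and -0.0070 without CAL27 control replicate 2, libraries with 10 and 41 ETV7 counts. The CAL27 over SCC25 call was lost with DESeq2 (adjusted p = 0.0748), without SCC25 control replicate 1 (adjusted p = 0.0628) and without CAL27 control replicate 1 (adjusted p = 0.0928).

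Among the 8 members that passed the filter on low counts, 6 passed the test for CAL27 over A253 controls (4 higher, 2 lower), where 73.0% of all genes tested did. For SCC25 over A253 it was 7 (5 higher, 2 lower) against 74.5% of all genes, and for CAL27 over SCC25 it was 6 (2 higher, 4 lower) against 70.9%. The members' counts are thus near the background of very different cell lines. The 3 comparisons share control libraries.

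**Figure D1:**
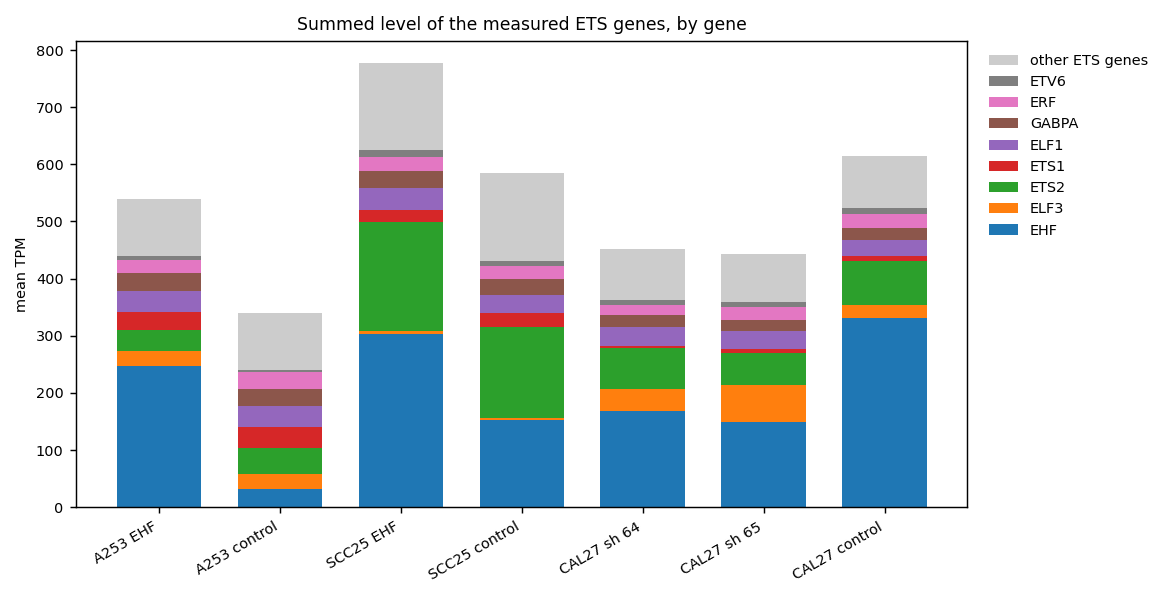
Mean TPM of the ETS genes, stacked by gene (vertical axis, TPM, from 0), in overexpressing and control groups of A253 and SCC25 and in the sh 64, sh 65 and control groups of CAL27 (horizontal axis). EHF is the lowest block in each bar and makes up 45.8% of the A253 overexpression bar against 9.07% of the A253 control bar, while ELF3 is widest in the sh 65 bar, at 65 TPM.

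The second comparison asks which family members changed when EHF was raised in A253, the line with least EHF. EHF had 749, 695 and 611 CPM in overexpressing libraries, against 83.1, 88.9 and 81.1 CPM in controls. Every overexpressing library was far above every control, a rise of 8.13-fold (log2 change 3.02, SE 0.079, adjusted p = 4.63e-13). The overexpressing level still lay below the 968 and 1019 CPM of CAL27 controls. In TPM the summed ETS level was 539 ± 46.2 in overexpressing cells and 340.3 ± 22.2 in controls (SD, n = 3 each). Without EHF it was 292 ± 18.7 TPM and 309 ± 19.5 TPM, so the added TPM of the family were those of EHF.

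The epithelial relatives did not pass the test in A253. ELF3 had 43.0, 38.8 and 40.2 CPM in overexpressing libraries and 41.6, 42.1 and 48.5 CPM in controls, and the groups overlapped (log2 change -0.11, SE 0.078, adjusted p = 0.522). SPDEF was under the filter: it had 4, 4 and 9 counts in overexpressing libraries and 0, 0 and 1 counts in controls. Each overexpressing library thus held more SPDEF than any control, at levels that are close to absence in both. Over the summed libraries the ratio was 17.2, with an exact 95% interval of 2.69 to 718 that covers counting error alone, and in the fit without the filter SPDEF passed (adjusted p = 0.01). ELF5 had 0, 2 and 1 counts in overexpressing libraries and 1, 1 and 0 counts in controls, a ratio of 1.52 (interval 0.174 to 18.2). No difference in ELF5 could be detected at this depth.

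ETV7, a factor linked to interferon responses, was the other member that rose. It had 1.95, 2.29 and 2.48 CPM in overexpressing libraries, against 1.42, 0.821 and 1.14 CPM in controls, without overlap (log2 change 1.00, SE 0.25, adjusted p = 0.0184). These are 13 to 42 counts a library. The call was lost with DESeq2 (adjusted p = 0.113), without control replicate 2 (adjusted p = 0.0958), and without overexpressing replicate 2 (adjusted p = 0.0605) or 3 (adjusted p = 0.0768).

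ETS2 fell, by less. It had 72.5, 75.4 and 73.6 CPM in overexpressing libraries, against 89.0, 88.9 and 85.0 CPM in controls, and all 3 overexpressing libraries lay below all controls (log2 change -0.24, SE 0.062, adjusted p = 0.0206). Leaving out control replicate 1 or 2 or overexpressing replicate 1 or 3 ended this call, with adjusted p from 0.0532 to 0.11 at log2 changes of -0.25 to -0.23. ETS1 had 85.7, 91.2 and 78.5 CPM in overexpressing libraries and 101, 103 and 95.3 CPM in controls. These groups did not overlap either, but the change missed the threshold (log2 change -0.22, SE 0.067, adjusted p = 0.0515). It passed with RLE scaling (adjusted p = 0.0479), upper-quartile scaling (adjusted p = 0.0481), no filter (adjusted p = 0.027) and without overexpressing replicate 2 (adjusted p = 0.0342).

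ETV6 had 23.8, 16.5 and 18.02 CPM in overexpressing libraries and 10.1, 15.9 and 11.4 CPM in controls. The highest values of both groups came from the overexpressing replicate 1 and control replicate 2 named above. The change did not pass (log2 0.63, SE 0.221, adjusted p = 0.187), but it passed with DESeq2 (adjusted p = 0.00854) and without control replicate 2 (log2 0.87, adjusted p = 0.00355). ELF1 (log2 change 0.05, adjusted p = 0.792) and ELK3 (log2 change -0.02, adjusted p = 0.967) had overlapping groups. In all, 3 of 8 tested members passed in A253, 2 higher (EHF and ETV7) and 1 lower (ETS2), against 7.97% of all genes tested. EHF is among them by design. Without overexpressing replicate 3 the count was 1, and with no filter on low counts it was 5. The median log2 change was 0.02 over the members, EHF included, and -0.003 over all genes.

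In SCC25, where EHF started higher, it was raised less. EHF had 871 and 915 CPM in overexpressing libraries, against 471 and 430.3 CPM in controls, a 1.99-fold rise without overlap (log2 change 0.99, SE 0.056, adjusted p = 9.11e-13). More of the tested ETS members passed here than in A253, in a line where more genes passed overall: 6 of 8, 5 higher and 1 lower, against 23.9% of all genes tested. EHF, raised by design, is among the 6. The median log2 change was 0.23 over the members, EHF included, and 0.003 over all genes. The count was 3 with DESeq2 and 3 without overexpressing replicate 2.

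ELF3 had 7.55 and 7.23 CPM in overexpressing SCC25 libraries and 8.47 and 7.69 CPM in controls. Both overexpressing values were the lower ones, by less than the test could separate (log2 change -0.13, SE 0.15, adjusted p = 0.591). SPDEF had 6 and 11 counts in overexpressing libraries and 3 counts in each control, a ratio of 3.41 (exact 95% interval 1.28 to 10.6), and did not pass in the fit without a filter (adjusted p = 0.0702). ELF5 had 0 counts in all 4 SCC25 libraries, which allows up to 0.119 CPM over the overexpressing and 0.0991 CPM over the control libraries.

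ETS2 had 385 and 430 CPM in overexpressing SCC25 libraries, against 344 and 341 CPM in controls, so it rose here (log2 change 0.25, SE 0.053, adjusted p = 0.000806). The call was lost without overexpressing replicate 2 (log2 0.17, adjusted p = 0.104). Here and in CAL27, leaving out a library leaves 1 in its group, which the fit assumes to vary like the other groups. ETV6 had 37.5 and 40.7 CPM in overexpressing libraries and 31.7 and 27.8 CPM in controls (log2 change 0.40, SE 0.084, adjusted p = 0.000942). ETV7 had 4.59 and 5.8 CPM in overexpressing libraries and 3.35 and 2.98 CPM in controls (log2 change 0.74, SE 0.205, adjusted p = 0.00967).

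These 3 genes rose in both overexpressing libraries above both controls. The ETV7 call was lost with DESeq2 (adjusted p = 0.153), without control replicate 2 (adjusted p = 0.0743) and without overexpressing replicate 2 (adjusted p = 0.208). ELF1 rose slightly, with 70.7 and 74.4 CPM in overexpressing libraries and 63.9 and 62.3 CPM in controls (log2 change 0.21, SE 0.06, adjusted p = 0.0121). Its call was lost with DESeq2 (adjusted p = 0.137) and without overexpressing replicate 2 (adjusted p = 0.206).

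ELK3 was the member that fell in SCC25. It had 14.4 and 14.3 CPM in overexpressing libraries, against 19.7 CPM in each control (log2 change -0.45, SE 0.105, adjusted p = 0.00226). The groups did not overlap, although with DESeq2 the change missed the threshold (adjusted p = 0.0561). These are 151 and 209 counts in overexpressing and 312 and 284 counts in control libraries. ETS1 had 64.05 and 61.3 CPM in overexpressing libraries and 70.4 and 66.1 CPM in controls, lower in both without passing (log2 change -0.12, SE 0.063, adjusted p = 0.172).

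Whether the lines responded differently was tested by the difference of their overexpression effects, SCC25 minus A253. Of 8 members 2 passed, against 5.63% of all genes tested. EHF, the gene raised by design, is among these 2. EHF itself rose less in SCC25 (log2 difference -2.05, SE 0.109, adjusted p = 5.57e-10). ETS2 was the other: its change was 0.25 in SCC25 and -0.24 in A253 on the log2 scale, a difference of 0.48 (SE 0.085, adjusted p = 0.00173). ETV7 rose in both lines, and its difference did not pass (log2 -0.28, SE 0.325, adjusted p = 0.714). The fall of ELK3 in SCC25 did not differ from A253 past the threshold (log2 difference -0.44, SE 0.159, adjusted p = 0.111), nor did the values of ELF1, ELF3, ETS1 and ETV6 (adjusted p = 0.502, 0.953, 0.689 and 0.742).

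**Figure D2:**
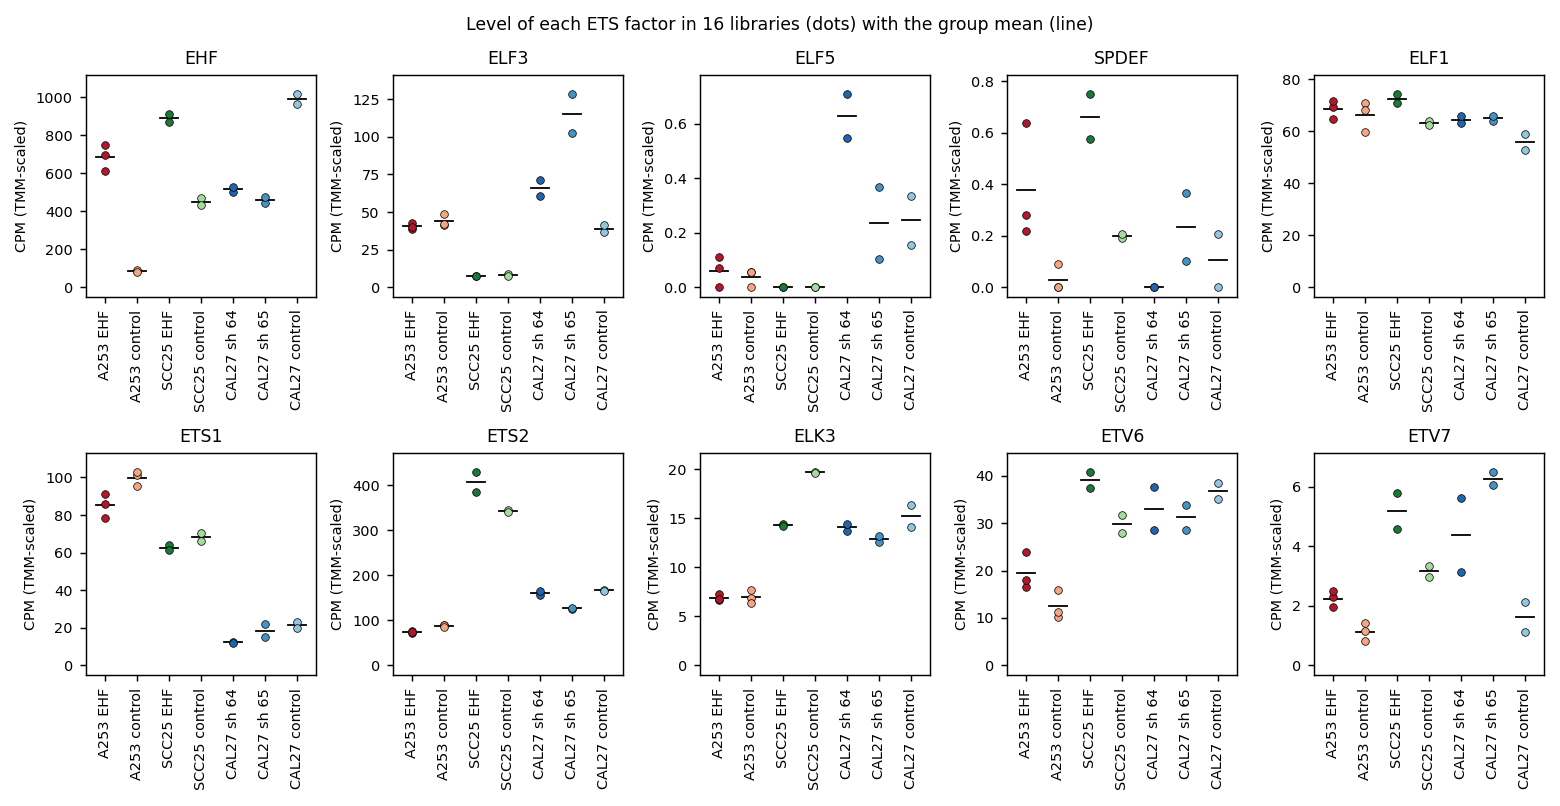
CPM of each of the 10 ETS factors (vertical axes, one scale per gene, CPM of the TMM-scaled library) in the 16 libraries, with overexpressing (EHF) and control groups of A253 and SCC25 and sh 64, sh 65 and control groups of CAL27; dots are libraries and lines are group means. ELF3 stands at 60.9 to 128.7 CPM in the knockdown libraries of CAL27 against 36.5 and 41.4 CPM in its controls, and ELF5 and SPDEF stay under 1 CPM throughout.

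The knockdown comparison asks what followed when EHF was lowered in CAL27, the line with most EHF. EHF had 503 and 527 CPM with sh 64 and 442 and 474 CPM with sh 65, against 968 and 1019 CPM in controls. Both hairpins left about the level of an SCC25 control, a partial lowering with log2 changes of -0.93 (SE 0.071, adjusted p = 1.68e-07) for sh 64 and -1.10 (SE 0.072, adjusted p = 1.8e-08) for sh 65. ELF3 and ETV7 rose with both hairpins, ETV7 by more on the log2 scale but from far fewer counts.

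ELF3 had 60.9 and 71.6 CPM with sh 64 and 102.5 and 129 CPM with sh 65, against 36.5 and 41.4 CPM in controls. All 4 knockdown libraries were above both controls, and both sh 65 libraries were above both sh 64 libraries. The rise was 1.69-fold with sh 64 (log2 change 0.76, SE 0.116, adjusted p = 0.000372) and 2.98-fold with sh 65 (log2 change 1.57, SE 0.113, adjusted p = 1.9e-07). Neither call was lost under another scaling, test or filter, with the replicate block or with a library left out.

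In TPM, ELF3 was 37.7 ± 5.42 with sh 64, 65 ± 8.27 with sh 65 and 22.6 ± 1.27 in controls (SD, n = 2 each), and its rank among the ETS genes was 3 with sh 64, 2 with sh 65 and 5 in controls. The summed TPM of ETS genes other than EHF was 284 ± 21.2 with sh 64, 295 ± 10.1 with sh 65 and 283 ± 12.7 in controls. EHF remained the highest ETS gene in each group, at 37.3% of the ETS total with sh 64, 33.5% with sh 65 and 54.0% in controls.

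The other epithelial relatives stayed near absence. ELF5 had 7 and 5 counts with sh 64, 1 and 3 counts with sh 65, and 3 counts in each control. The ratio to control was 2.85 for sh 64 (exact 95% interval 0.989 to 9.25) and 1.05 for sh 65 (interval 0.218 to 4.43). SPDEF had 0 counts in both sh 64 libraries, 1 and 3 counts with sh 65, and 0 and 4 counts in controls, and no difference could be detected at this depth.

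ETV7 had 5.63 and 3.12 CPM with sh 64 and 6.04 and 6.49 CPM with sh 65, against 1.11 and 2.13 CPM in controls. Every knockdown library exceeded both controls, with log2 changes of 1.40 for sh 64 (SE 0.318, adjusted p = 0.00608) and 1.84 for sh 65 (SE 0.307, adjusted p = 0.000532). The sh 64 call was lost without sh 64 replicate 1 (log2 0.84, adjusted p = 0.271). ETV7 thus passed as higher both where EHF was raised and where it was lowered.

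ETS1 and ETS2 each fell with one hairpin. ETS1 had 12.3 and 12.1 CPM with sh 64 and 21.8 and 15.1 CPM with sh 65, against 22.9 and 19.8 CPM in controls. The sh 64 libraries lay below both controls (log2 change -0.78, SE 0.167, adjusted p = 0.00438), while the sh 65 libraries overlapped the controls (log2 change -0.17, SE 0.159, adjusted p = 0.543). The sh 64 call was lost without sh 64 replicate 1 (log2 -0.79, adjusted p = 0.077), and the sh 65 value turned to 0.08 without sh 65 replicate 2.

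ETS2 had 157 and 165 CPM with sh 64 and 125 and 129 CPM with sh 65, against 167 and 166 CPM in controls. Here the sh 65 libraries were the low ones (log2 change -0.38, SE 0.075, adjusted p = 0.00225), and the sh 64 change did not pass (log2 -0.04, SE 0.074, adjusted p = 0.794). The sh 65 call ended without control replicate 1 (log2 -0.36, adjusted p = 0.0502).

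The remaining members changed little. ELF1 had 63.2 and 65.8 CPM with sh 64 and 64.1 and 66.1 CPM with sh 65, against 59.0 and 52.9 CPM in controls. All 4 knockdown libraries were higher, without passing for sh 64 (log2 change 0.23, adjusted p = 0.106) or sh 65 (log2 change 0.25, adjusted p = 0.082). ELK3 ranged from 12.6 to 14.5 CPM in the knockdown libraries and was 16.4 and 14.2 CPM in controls, and ETV6 ranged from 28.5 to 37.6 CPM against 38.5 and 35.1 CPM. Neither passed for a hairpin.

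Per hairpin, 4 of 8 members passed with sh 64 (ELF3 and ETV7 higher, EHF and ETS1 lower), against 15.7% of all genes tested. With sh 65 it was also 4 (ELF3 and ETV7 higher, EHF and ETS2 lower), against 14.6%. The mean of both hairpins against control passed for 6 of 8, 3 higher (ELF1, ELF3 and ETV7) and 3 lower (EHF, ETS1 and ETS2), against 18.8%. EHF, lowered by design, is in each of these counts. For the mean, the median log2 change was -0.16 over the members, EHF included, and 0.003 over all genes. ELF1 (log2 0.24, adjusted p = 0.0457), ETS1 (log2 -0.47, adjusted p = 0.0236) and ETS2 (log2 -0.21, adjusted p = 0.0317) each lost this call with DESeq2 (adjusted p = 0.154, 0.0706 and 0.0738), and ELF1 with limma-trend (adjusted p = 0.0594). Each also lost it without sh 64 replicate 1 (adjusted p = 0.0621, 0.0809 and 0.0717) and without control replicate 1 (adjusted p = 0.084, 0.23 and 0.301). ELF1 and ETS2 lost it without control replicate 2 (adjusted p = 0.556 and 0.19), and ELF1 and ETS1 without sh 64 replicate 2 (adjusted p = 0.0856 and 0.0588). The count for the mean was 3 without sh 64 replicate 1, without control replicate 1 or with DESeq2, and that for sh 64 was 2 without sh 64 replicate 1. The hairpins share their control libraries.

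Between the hairpins, sh 65 against sh 64, 2 of 8 members passed, against 5.34% of all genes tested. ELF3 was higher with sh 65 (log2 difference 0.81, SE 0.111, adjusted p = 0.000323) and ETS2 was lower (log2 difference -0.34, SE 0.076, adjusted p = 0.0119). The ETS2 call was lost without sh 64 replicate 2 (log2 -0.30, adjusted p = 0.0755), which left 1 member. EHF was lower in both sh 65 libraries (442 and 474 CPM) than in both sh 64 libraries (503 and 527 CPM). The difference did not pass (log2 difference -0.16, SE 0.072, adjusted p = 0.23). A difference in the EHF level between hairpins that differ in ELF3 was thus neither established nor excluded. ETS1 missed the threshold (log2 difference 0.61, SE 0.175, adjusted p = 0.0522) and passed with upper-quartile scaling (adjusted p = 0.0441), with no filter (adjusted p = 0.00357) and without sh 65 replicate 2 (log2 0.85, adjusted p = 0.000534).

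**Figure D3:**
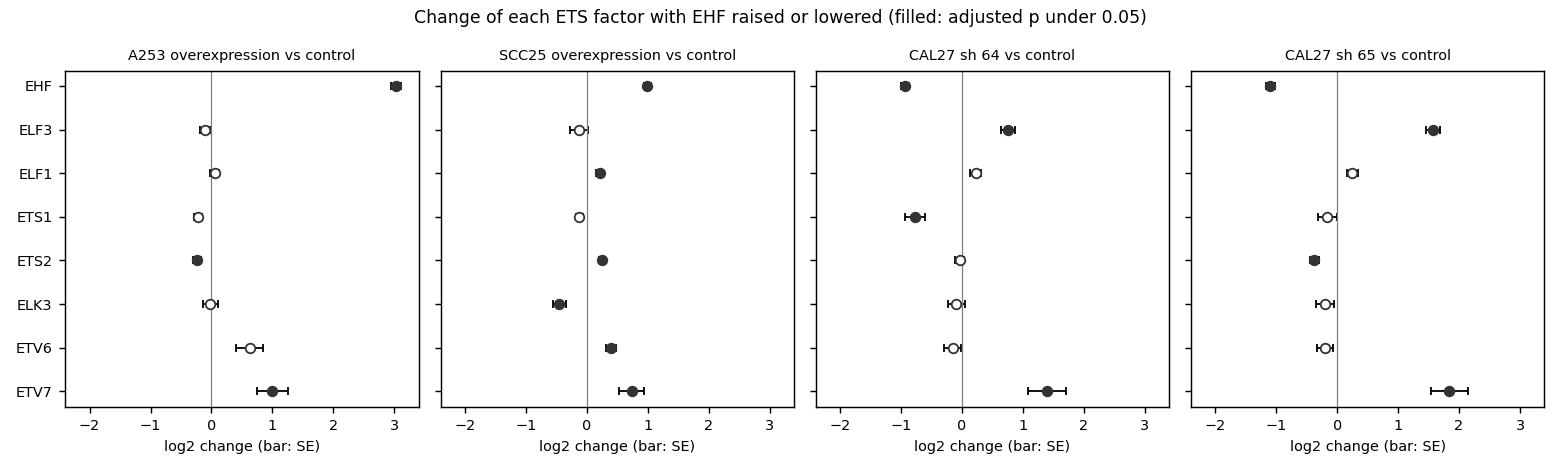
Log2 change (horizontal axis) of the 8 tested ETS factors (rows) in overexpressing against control cells of A253 and SCC25 and in sh 64 and sh 65 against control cells of CAL27; bars are standard errors and filled dots passed the threshold of 0.05. ELF3 is filled in both CAL27 panels, at 0.76 and 1.57, and open near 0 in both overexpression panels, and ETV7 is filled on the right in all 4.

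Of the other 18 ETS genes, 6 of 13 tested passed in SCC25, 2 higher and 4 lower, against 23.9% of all genes tested. In A253, 0 of 11 tested passed by edgeR and 0 by DESeq2, with 2 at an unadjusted p under 0.05, against 7.97% of all genes. The largest changes in SCC25 were of ETV1 (log2 change -1.47, SE 0.229, adjusted p = 3.22e-05), ETV5 (-0.99, SE 0.188, adjusted p = 0.000344) and ETV4 (-0.71, SE 0.117, adjusted p = 7.18e-05), the PEA3 group of ETS activators. ETV1 had 2.29 and 1.71 CPM in overexpressing SCC25 libraries, against 5.56 and 5.33 CPM in controls. ETV4 had a lower effect in SCC25 than in A253 (log2 difference -0.84, SE 0.154, adjusted p = 0.00249), and so had ETV5 (-0.77, SE 0.222, adjusted p = 0.0472), whose call ended with DESeq2 (adjusted p = 0.161), limma-trend (adjusted p = 0.0513) and upper-quartile scaling (adjusted p = 0.0599) and without any 1 library other than A253 control replicate 3 and A253 overexpressing replicate 2 (adjusted p = 0.0563 to 0.237).

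FLI1, the neighbour of ETS1 in the annotation and a factor of blood and endothelial cells, differed between the lines. It had 33.0 and 32.2 CPM in overexpressing SCC25 libraries and 39.7 and 36.4 CPM in SCC25 controls, while no A253 or CAL27 library held more than 2 counts. Its fall with overexpression passed (log2 change -0.22, adjusted p = 0.0456), but not with DESeq2 (adjusted p = 0.28), with limma-trend (adjusted p = 0.0507), without control replicate 1 (adjusted p = 0.231) or without overexpressing replicate 1 (adjusted p = 0.0966) or 2 (adjusted p = 0.252). Summed endothelial markers were 10.1 CPM in overexpressing and 7.2 to 8.28 CPM in control SCC25 libraries, and their part in this was not tested. In CAL27, 3 of 12 other ETS genes passed with sh 64, against 15.7% of all genes tested, namely ERG (log2 change 1.17, adjusted p = 0.036), the repressor ERF (-0.53, adjusted p = 0.00567) and ELK1 (-0.41, adjusted p = 0.0426). With sh 65 it was ETV5, 1 of 12, against 14.6% of all genes (-0.58, adjusted p = 0.0221). ERG was low, at 2.58 and 1.84 CPM with sh 64 and 1.00 and 1.04 CPM in controls, from 9 to 33 counts a library. The ERG, ELK1 and ETV5 calls ended without control replicate 1 (adjusted p = 0.15, 0.175 and 0.0624) and without control replicate 2 (adjusted p = 0.227, 0.192 and 0.19). Those of ERG, ELK1 and ERF ended without sh 64 replicate 1 (adjusted p = 0.362, 0.393 and 0.0597), that of ERF without control replicate 1 (adjusted p = 0.0648), and that of ETV5 without sh 65 replicate 2 (adjusted p = 0.14). With DESeq2, ELK1 and ETV5 did not pass (adjusted p = 0.182 and 0.112), and ERG was given no adjusted p (unadjusted p = 0.0678). ELK1 and ERG did not pass with limma-trend either (adjusted p = 0.0631 and 0.0784).

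Other transcription factors of epithelial identity were read beside the ETS members. Of 12 tested in CAL27, 6 rose and 0 fell with each hairpin by edgeR, against 15.7% of all genes called in either direction with sh 64 and 14.6% with sh 65. With DESeq2 5 rose with sh 64 and 4 with sh 65 (0 fell, also at an unadjusted p under 0.05). ZNF750 and KLF4, factors of late keratinocyte differentiation, were among them: ZNF750 averaged 5.72 ± 0.131 CPM with sh 64, 7.38 ± 0.298 CPM with sh 65 and 1.84 ± 0.555 CPM in controls, and KLF4 averaged 31.6 ± 4.66, 33.5 ± 0.987 and 18.6 ± 0.299 CPM (SD, n = 2 each). Next by size was KLF5 with sh 64 (log2 change 0.70, adjusted p = 1.55e-05) and GRHL1, a grainyhead factor, with sh 65 (log2 change 0.46, adjusted p = 0.0378). The GRHL1 call with sh 65 was lost with DESeq2 (adjusted p = 0.159), without sh 65 replicate 2 (adjusted p = 0.254) and without control replicate 1 (adjusted p = 0.133) or 2 (adjusted p = 0.241). The median log2 change of this list was 0.36 with sh 64 and 0.28 with sh 65, and that of all genes was 0.003 and 0.006.

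In SCC25, where 23.9% of all genes passed, 5 of 13 epithelial factors rose with overexpression and 0 fell by edgeR (4 and 0 with DESeq2, 6 and 1 at an unadjusted p under 0.05), with GRHL1 (log2 change 0.66, SE 0.058, adjusted p = 5.3e-09), TP63, the master regulator of stratified epithelium (0.58, SE 0.055, adjusted p = 1.87e-08), and KLF5 (0.30, SE 0.052, adjusted p = 0.000119) as the largest. In A253, where 7.97% passed, 2 of 13 rose and 0 fell by edgeR (1 and 0 with DESeq2, 4 and 0 at an unadjusted p under 0.05). They were FOXA1 (log2 change 0.59, SE 0.101, adjusted p = 0.00105) and GRHL1 (0.35, SE 0.098, adjusted p = 0.0374), the GRHL1 call being lost with DESeq2 (adjusted p = 0.128) and without control replicate 1 or 3 or overexpressing replicate 2 or 3 (adjusted p = 0.114 to 0.15). FOXA1 responded differently between the lines (SCC25 minus A253, log2 difference -1.07, SE 0.23, adjusted p = 0.00814), a call lost without SCC25 control replicate 1 (adjusted p = 0.078) or SCC25 overexpressing replicate 2 (adjusted p = 0.116).

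Among mesenchymal factors, SNAI2 (log2 change -0.26, adjusted p = 0.029) and TWIST1 (-0.34, adjusted p = 0.0298) fell in A253, 2 of 5 tested against 7.97% of all genes, and both calls ended with DESeq2 (adjusted p = 0.071 and 0.117). The SNAI2 call also ended without any 1 library other than overexpressing replicate 3 (adjusted p = 0.0539 to 0.141), and the TWIST1 call without any 1 control or overexpressing replicate 2 (adjusted p = 0.0724 to 0.135). In SCC25, 0 of 5 passed by edgeR or DESeq2, and 2 were lower at an unadjusted p under 0.05. With sh 65, SNAI2 fell, 1 of 3 tested against 14.6% of all genes (log2 change -0.40, SE 0.087, adjusted p = 0.00444), a call that ended without control replicate 1 (adjusted p = 0.0625), and with sh 64 0 of 3 passed by edgeR, by DESeq2 or at an unadjusted p under 0.05.

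Finally, 10931 genes outside the members were tested in all lines and averaged a log2 CPM of at least 2. Those whose level followed EHF or ELF3 over the 7 group means were named by Pearson's correlation of log2 CPM. This is a description over 7 points that share lines and libraries, and the overexpression and knockdown groups enter it. For EHF the nearest were LRG1, a secreted glycoprotein (r = 0.971), LAPTM5, a lysosomal membrane protein (r = 0.954), the chemokine CXCL16 (r = 0.919), SDPR, a caveolar protein (r = 0.904), and AASS, an enzyme of lysine breakdown (r = 0.901). LAPTM5 averaged 5.17 ± 0.836 CPM in overexpressing and 0.0377 ± 0.0654 CPM in control A253 cells (SD, n = 3 each), and 33.9 ± 1.28 CPM in overexpressing and 4.75 ± 0.252 CPM in control SCC25 cells (SD, n = 2 each). In CAL27 it averaged 3.29 ± 0.437 CPM with sh 64, 2.67 ± 0.137 CPM with sh 65 and 12.4 ± 0.108 CPM in controls (SD, n = 2 each). It was on the side of EHF in every pair, but it was picked for its correlation with EHF over these same group means. Its side is therefore no separate evidence. At its level in A253 controls it could pass the low-count filter in A253 only through the overexpressing group.

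For ELF3 the nearest were STIM1, a calcium sensor of the endoplasmic reticulum (r = 0.994), LY6D, a surface protein of keratinocytes (r = 0.993), the small nucleolar RNA SNORD97 (r = 0.992), the zinc finger factor ZBTB26 (r = 0.989) and the golgin GOLGA1 (r = 0.988). SNORD97 varied widely within groups, at 71.0 ± 30.9 CPM with sh 64 and 53.2 ± 16.5 CPM in CAL27 controls (SD, n = 2 each). LY6D had the widest range of the 5 genes. It averaged 156 ± 1.09 CPM with sh 64, 287 ± 47.8 CPM with sh 65 and 77.4 ± 7.53 CPM in CAL27 controls (SD, n = 2 each). In SCC25 it averaged 15.6 ± 1.78 CPM in overexpressing and 12.1 ± 1.37 CPM in control cells (SD, n = 2 each). In A253 it averaged 109 ± 12.9 CPM in overexpressing and 102 ± 9.42 CPM in control cells (SD, n = 3 each). LY6D thus averaged higher with overexpression in both lines. ELF3 averaged lower in both, at 7.39 against 8.08 CPM in SCC25 and 40.65 against 44.1 CPM in A253, without passing.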

How the data were processed

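RNA from 16 libraries of 3 established cell lines was sequenced after mRNA enrichment with a TruSeq RNA kit, per the labels. Reads were on hg19, and the submitters' processing notes list DESeq2 1.12.4, Bowtie 1.1.1, TopHat2 2.1.1 and featureCounts 1.5.3. Strand use is not given in the sources used here. The authors deposited raw counts per gene symbol, 1 table per line, and TPM tables. Deposited TPM served to derive each gene's length from counts and TPM of A253, or of CAL27 controls where A253 had none, and TPM printed here was recomputed from counts with those lengths. The deposited SCC25 TPM table was not used, and the CAL27 EHF ChIP and input libraries were not analysed here. Of the CAL27 gene names beside counts, 696 were altered, none of them an ETS gene, and names were taken by position from A253. The CAL27 count and TPM tables give sh 64 and sh 65 the other way round (patterns of zeros matched crosswise for 100% of genes). Counts of sh 64 R1 and R2 matched TPM of sh 65 R2 and R1, so their replicate numbers differ too. Counts of sh 65 R1 and R2 matched TPM of sh 64 R1 and R2. The names and replicate numbers of the count table are used, also for the correlations of same-numbered libraries and the replicate block. The labels tie neither hairpin name to knockdown 1 or 2.

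Counts were tested with edgeR 4.0.16 in R 4.3.3 (filterByExpr, TMM, robust quasi-likelihood, two-sided): 1 fit per line, 1 of both overexpression lines with an interaction term, and 1 of the 7 control libraries. SE is the log2 change divided by the root of F. CPM printed uses TMM over all 16 libraries. Alternatives were RLE and upper-quartile scaling, no filter, DESeq2 1.42.0, limma-trend (limma 3.58.1), the replicate number as a block, and leaving out each library (in groups of 2 the lone library is then assumed to vary like the other groups). Steps were tested on simulated data. Intervals of count ratios are exact at 95% and cover counting error only. The labels do not say whether replicates are separate cultures, so p-values measure the spread between these libraries, which may be technical.

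All 10 ETS genes are reported. Of the other lists, at most 3 called genes per comparison were named, by size of change. FLI1, and the genes described beyond their correlation, LAPTM5 and LY6D, were picked after their values were seen. The members and lists were chosen with earlier results of these data known.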

Additional observations from a re-analysis of the deposited data

Results flagged for a closer look

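Both pairs of effects below differed by a test of the difference itself. For overexpression in SCC25 minus A253, EHF differed by -2.05 and ETS2 by 0.48 on the log2 scale (edgeR adjusted p = 5.57e-10 and 0.00173). For sh 65 against sh 64 in CAL27, ELF3 differed by 0.81 and ETS2 by -0.34 on the log2 scale (edgeR adjusted p = 0.000323 and 0.0119).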

How the results depend on the processing

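Of all recomputed values for single genes, 1561 kept their direction and side of the threshold, 120 lost a call, 23 gained one and 14 changed sign, each of these at a change that did not pass. The count of ETS members past the threshold kept within 1.5 times its value except as follows. In A253 it was 3, and 5 with no filter on low counts, in SCC25 it was 6, and 3 with DESeq2, and for the mean of the knockdowns it was 6, and 3 with DESeq2. These counts include EHF, which was changed by design. Leaving out 1 library gave 1 to 3 in A253, 3 to 6 in SCC25, 3 to 6 for the knockdown mean, 2 to 4 for sh 64 and 1 to 3 for sh 65 against sh 64. The low ends came without A253 overexpressing replicate 3, without SCC25 overexpressing replicate 2, without sh 64 replicate 1 (the knockdown mean, also without control replicate 1, and sh 64) and without sh 64 replicate 2.

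The sign changes came from leaving out a library, and the log2 changes then had these ranges. In A253, ELF1 ran from -0.011 (without control replicate 3) to 0.097 and ELK3 from -0.0702 to 0.050 (without control replicate 1). For sh 64, ELK3 ran from -0.23 to 0.010 (without control replicate 1), ETS2 from -0.0773 to 0.0060 and ETV6 from -0.35 to 0.061 (both without sh 64 replicate 1). For sh 65, ETS1 ran from -0.48 to 0.076 (without sh 65 replicate 2). For sh 65 against sh 64, ELF1 ran from -0.019 (without sh 64 replicate 1) to 0.055, and ETV6 from -0.27 to 0.15 (without sh 64 replicate 2; 0.072 without sh 65 replicate 2). For CAL27 over A253 controls, ETV7 ran from -0.0070 (without CAL27 control replicate 2) to 0.93. For SCC25 minus A253, ELF3 ran from -0.10 to 0.053 (above 0 without A253 control replicate 1 or 2, A253 overexpressing replicate 1 or SCC25 control replicate 1). The cause was not tested. With the replicate block the members past the threshold were 4 in A253, 6 in SCC25, 6 for the knockdown mean, 4 for sh 64, 5 for sh 65, 3 for sh 65 against sh 64 and 2 for SCC25 minus A253. The block added the calls of ETS1 in A253 (adjusted p = 0.0359) and for sh 65 against sh 64 (0.00616) and of ELF1 for sh 65 (0.0428), and ended those of GRHL1 (0.0689) and TWIST1 (0.0519) in A253 and of ETV5 for SCC25 minus A253 (0.0628). Correlations of same-numbered A253 libraries were -0.406, -0.0796 and 0.416, without a common sign. In CAL27 the block raised the genes called from 2133 to 2968 for sh 64 and from 1994 to 2715 for sh 65. For sh 65 against sh 64 it raised them from 728 to 1260. Whether equal numbers mark paired libraries in CAL27 could not be settled by the correlations of same-numbered libraries (-0.0439, 0.238 and 0.0711), with 2 libraries a group. With no filter, 9 members passed for CAL27 over SCC25 controls. Groups of 2 libraries, and counts of at most 11 a library for ELF5 and SPDEF, limit what could be detected.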
